A study of Homo sapiens with 8 samples.

Results

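The comparison described here sets A549 cells with knockdown of AFAP1-AS1 against A549 cells of the vector control group, so the fold changes use no control-oligonucleotide library. It rests on 4 of the 8 RNA-seq libraries of the series, 2 in each group, chosen by their labels alone. A549 is an established human lung adenocarcinoma line, and AFAP1-AS1 is a long non-coding RNA of the strand opposite to AFAP1. The knockdown libraries have the genotype label "Knockdown AFAP1-AS1" and titles that call them ASO, which commonly stands for antisense oligonucleotide, while the vector libraries have a vector label. No label gives the oligonucleotide, its dose or the time of harvest, or says that vector cells received an oligonucleotide. Any effect of the knockdown and any effect of handling with an oligonucleotide therefore cannot be told apart in this comparison. The other 4 libraries are an AFAP1-AS1 overexpression group and a negative control group for the knockdown, titled ASONC and called the knockdown control here. In the test they enter only the filter on low values and the shared estimate of spread. Values of the knockdown control are set beside some results, and its differences from vector share the vector libraries with the main comparison.

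Several pathways that turn up in the results work as follows. Cells make cholesterol from acetyl-CoA through mevalonate, squalene and lanosterol, and when sterols in the endoplasmic reticulum run low the transcription factor SREBP2 is released to switch on most enzymes of the route. Type I interferon acts through transcription factors that bind the interferon-stimulated response element (ISRE) before antiviral genes such as the IFIT, OAS and MX families. The integrated stress response slows translation and raises ATF4 and CHOP, which induce genes of amino acid supply and stress signalling. Long non-coding RNAs such as AFAP1-AS1 have been linked to tumour growth and drug resistance in lung cancer cells, and the series carries AXIN2, splicing factors of the SR family and drug resistance in its title.

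Expression was read as FPKM, fragment counts divided by transcript length and library size, for 17056 genes. The 2 vector libraries gave 33359120 and 36416708 recovered reads and the 2 knockdown libraries 35634339 and 35196095. Replicates correlated across genes with r = 0.9973 for the vector control and r = 0.9977 for knockdown on the log2(FPKM + 1) scale. FPKM summed to 371927 and 378036 in the vector libraries and to 426133 and 421591 in the knockdown libraries. The epithelial keratins KRT7, KRT8 and KRT18 each stood at 981 FPKM or more in all 4 libraries, while 10 of 16 lung epithelial markers, among them the surfactant genes SFTPA1, SFTPB, SFTPC and SFTPD, were below 1 FPKM in all 4. Markers of other cells were low: 9 of 10 fibroblast markers were below 1 FPKM in all 4 libraries, and the exception was COL1A1 at 0.516 and 0.591 FPKM in vector and 1.87 and 2.06 in knockdown libraries. Immune markers summed to 52.8 and 54.1 FPKM in vector and 69.6 and 68.1 in knockdown libraries, nearly all of it CD68, with 5 of 8 below 1 FPKM in all 4 and the pan-leukocyte gene PTPRC at 0. Endothelial markers summed to 3.59 and 3.10 FPKM in vector and 2.88 and 3.29 in knockdown libraries, with 7 of 8 below 1 FPKM. In such bulk samples, fewer cells of a type and less RNA per cell cannot be told apart.

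Differences were spread over much of the transcriptome. Of the 10648 genes that averaged 1 FPKM or more over the 8 libraries, 62.9% were called (limma, Benjamini-Hochberg adjusted p below 0.05): 3632 genes higher in knockdown cells (34.1%) and 3068 lower (28.8%). Under TPM scaling, which divides each library by its FPKM sum and moved the median fold change of all genes by -0.152, 31.9% of the calls were higher, against 54.2% as deposited. The libraries of the 2 groups did not overlap for 82.1% of the genes. Few changes were large: 67 genes (0.629%) were higher and 105 (0.986%) lower by at least 1 on the log2(FPKM + 1) scale. With so many genes called, the list counts below are read against those shares.

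Fold change followed the length and base composition of the transcript. Across 10624 genes with a length, the Spearman correlation was -0.495 with transcript length and 0.423 with GC content. Genes are not independent replicates, and these values describe the table. In the shortest of 4 equal bins of transcripts, with a median of 1603 bases, 61.5% of genes were called higher and 9.1% lower. In the longest bin, with a median of 6852 bases, 11.9% were called higher and 53.6% lower. The 67 genes higher by at least 1 had a median length of 1836 bases and a GC content of 58.2%, and the 105 genes lower by at least 1 had 6494 bases and 39.9%. Counts are therefore given again after the log2 values were corrected for length and GC content in every library, where 29.8% of genes were called higher and 25.3% lower. What lies behind the length and GC pattern was not tested.

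**Figure D1:**
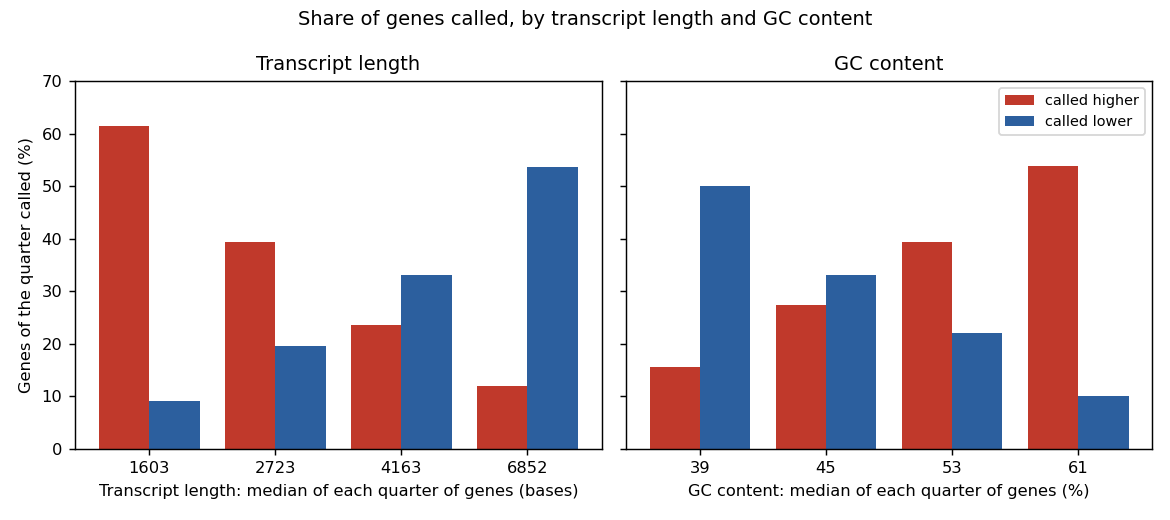
Share of genes called higher (red) and lower (blue) in knockdown against vector control libraries, in percent, over 4 equal bins of transcript length (left, bases) and of GC content (right, percent), each marked by its median. Calls turn from 61.5% higher in the shortest bin to 53.6% lower in the longest.

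**Figure D2:**
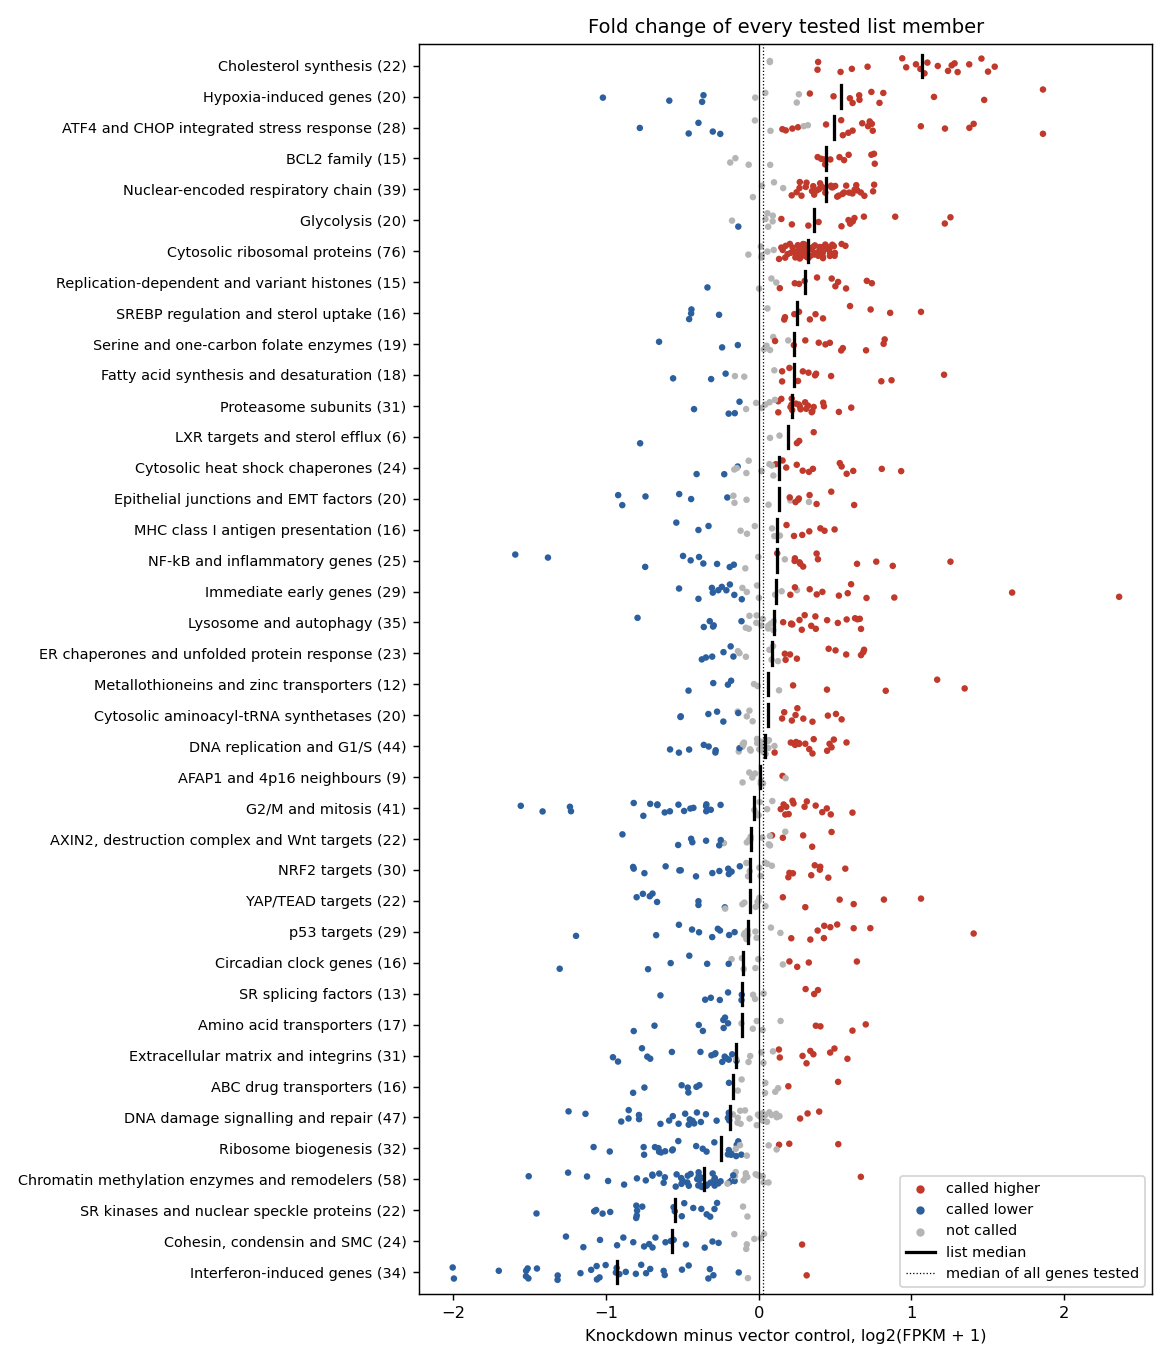
Log2(FPKM + 1) fold change, knockdown minus vector control, of every tested member of each gene list, with the number tested in brackets; red and blue points were called higher and lower, grey points were not called, and black bars are list medians. Cholesterol synthesis lies highest, with a median of 1.07, and interferon-induced genes lowest, with -0.93.

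The largest decreases belonged to interferon-induced genes. Of the 12 largest decreases among all genes, 7 were on the interferon list: IFIT3, IFIT1, OASL, IFIT2, SAMD9, MX1 and IFI6. Promoters from this list are shown because many of its genes share a short sequence there. The ISRE core, written GAAA, any 2 bases, GAAA and searched on both strands in the 250 bases before each RefSeq start (GRCh38.p14), occurred in 18 of the 27 interferon list genes with a promoter window, or 66.7%, against 3.16% of 8702 tested genes and 3.71% of all 27305 genes with a window. A match describes the sequence and is not evidence of binding. Below are 60 bases around the match nearest the start for 5 of these genes, read 5′ to 3′ on the gene's strand, with the match in capitals (its reverse complement in IFIT1 and IFIT3).
IFIT1 (chr10:89392495-89392554, plus strand): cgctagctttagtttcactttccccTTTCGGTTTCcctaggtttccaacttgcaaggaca
IFIT3 (chr10:89327850-89327909, plus strand): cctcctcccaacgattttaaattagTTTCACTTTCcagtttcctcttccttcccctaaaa
ISG15 (chr1:1013365-1013424, plus strand): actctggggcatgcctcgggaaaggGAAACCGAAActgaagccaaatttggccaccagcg
IFI6 (chr1:27672251-27672310, minus strand): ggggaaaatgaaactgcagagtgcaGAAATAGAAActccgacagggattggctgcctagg
SAMD9 (chr7:93118081-93118140, minus strand): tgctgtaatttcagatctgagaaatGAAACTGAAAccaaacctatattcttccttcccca
The match began 103 bases before the start in IFIT1, 122 in IFIT3, 107 in ISG15, 93 in IFI6 and 136 in SAMD9.

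Of 34 tested interferon-induced genes, 32 fell (94.1%, against 28.8% of all genes), 1 rose and 1 was not called, with a median log2 fold change of -0.93 against 0.03 over all genes. After the length and GC correction 33 of 34 were called lower, with a median of -0.85, and under TPM scaling the median was -1.09. Of these genes, 16 fell by at least 1. IFIT3, which encodes an interferon-induced tetratricopeptide protein, had 15.6 and 14.9 FPKM in vector and 3.197 and 2.904 in knockdown libraries, a log2 fold change of -2.00 ± 0.06 (SE) (limma adjusted p = 1.94e-09). Its mean was 5.0-fold higher in vector cells. IFIT1, its neighbour that binds RNA lacking a mature cap, had 12.7 and 13.6 FPKM against 2.73 and 2.36 (-2.00 ± 0.07). Replicates of both genes lay close together. The rule for the 12 largest decreases required groups that do not overlap, so that separation is no added result. It held for 82.1% of all genes tested. MX1, an antiviral GTPase, had 3.78 and 3.04 FPKM in vector libraries (744 and 653 reads) and 0.584 and 0.491 in knockdown libraries (123 and 102 reads), 6.34-fold lower by its means. OASL, of the oligoadenylate synthetase family, had 6.65 and 8.07 FPKM against 1.33 and 1.81 (-1.70 ± 0.12). ISG15, a ubiquitin-like modifier, had 35.8 and 34.9 FPKM against 12.54 and 12.04 (-1.45 ± 0.05). All 5 genes were below the vector range in both knockdown libraries, which the rule required of each but ISG15.

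IFI6, a mitochondrial and endoplasmic reticulum protein, had 30.5 and 32.9 FPKM against 10.41 and 10.51 (-1.51 ± 0.06). SAMD9, an antiviral factor, had 5.95 and 6.90 FPKM against 1.65 and 1.51 (-1.52 ± 0.08). The exception was IRF1, a transcription factor induced by interferon gamma, named here after its values were seen. It rose from 9.86 and 8.93 to 11.2 and 12.6 FPKM (0.31 ± 0.07, limma adjusted p = 0.00193). Outside this list, the interferon-responsive gene CCL5, a T cell chemokine, had 3.81 and 3.36 FPKM against 0.534 and 1.02 (-1.38 ± 0.11).

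Set beside them, the knockdown control libraries were on the other side of the vector libraries for several of these genes. The interferon list had a median of 0.33 for knockdown control minus vector control, which shares the vector libraries. IFIT3 had 20.04 and 19.22 FPKM there, ISG15 had 77.7 and 77.6, and IFI6 had 70.4 and 67.9, in each case above both vector libraries. SAMD9, at 3.31 and 3.12 FPKM, lay between the vector and knockdown ranges. The plot of interferon gene levels shows these 3 groups side by side.

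**Figure D3:**
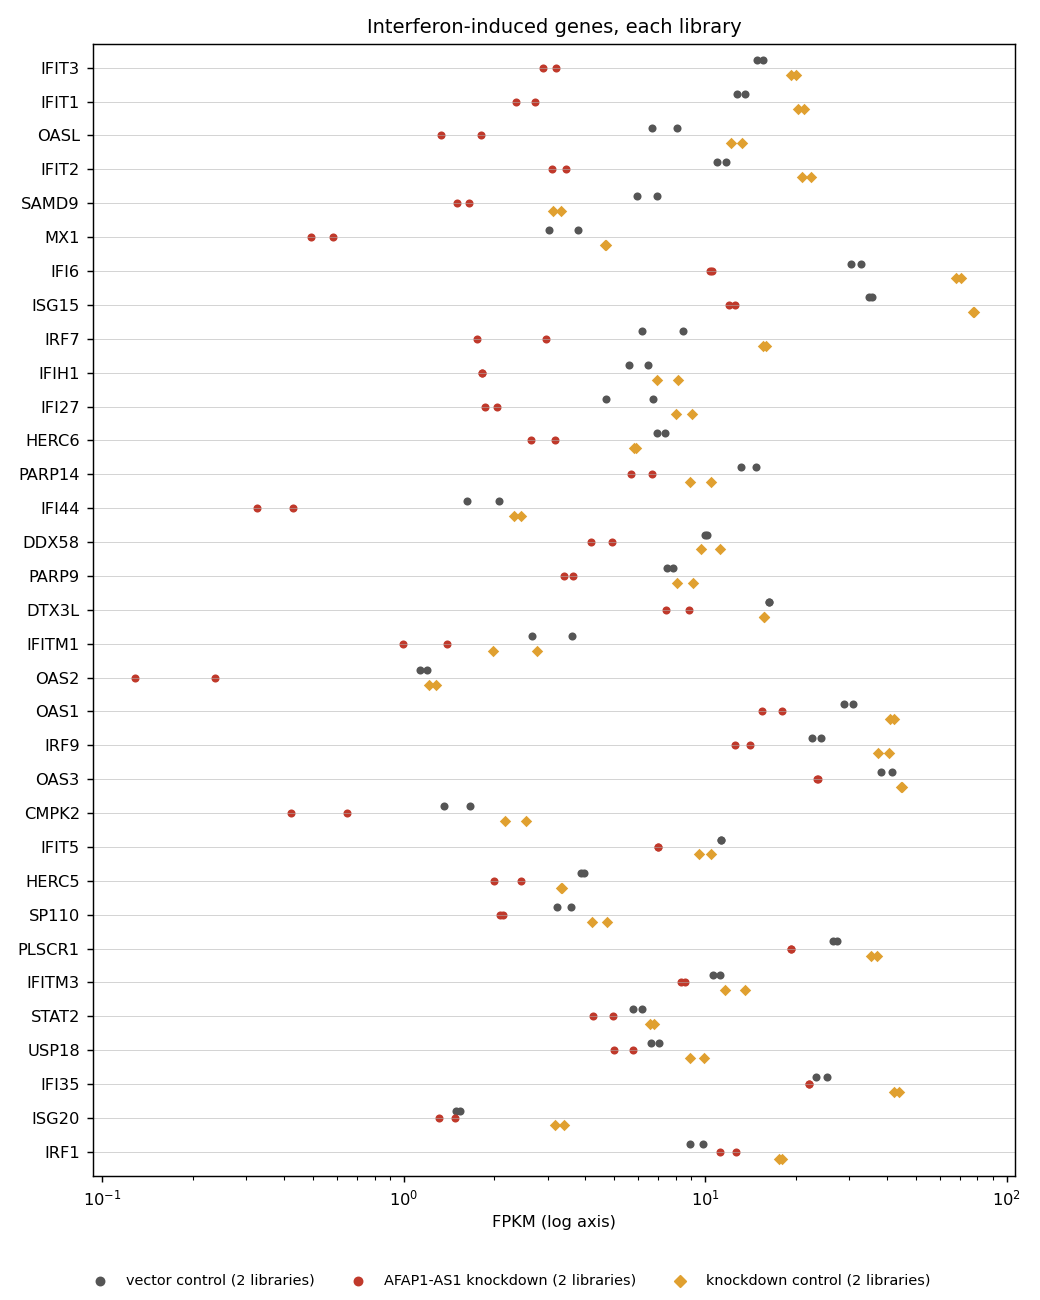
FPKM on a log axis of 33 of the 34 tested interferon-induced genes in each vector control (grey), knockdown (red) and knockdown control (orange diamonds) library, ordered by fold change. Knockdown libraries lie below both vector libraries for every gene plotted that was called lower, and above them for IRF1.

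Genes of cholesterol synthesis rose nearly as a block. Of 22 tested enzymes 20 were called higher (90.9%, against 34.1% of all genes) and 0 lower, with a median log2 fold change of 1.07. They made up 13 of the 67 genes that rose by at least 1. After the length and GC correction 21 were higher with a median of 0.92, and under TPM scaling 20 were higher with a median of 0.90. The first steps differed in size. ACAT2, which joins acetyl-CoA units at the start of the route, had 29.8 and 30.9 FPKM in vector and 78.4 and 74.3 in knockdown libraries (1.30 ± 0.04, limma adjusted p = 2.67e-09). HMGCS1, which makes HMG-CoA, had 36.5 and 37.8 FPKM in vector and 47.5 and 50.2 in knockdown libraries (0.39 ± 0.05, limma adjusted p = 3.43e-05).

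Most later steps had larger differences than HMGCS1. MVK, mevalonate kinase, had 5.33 and 5.58 FPKM in vector and 16.8 and 14.8 in knockdown libraries (1.38 ± 0.07). MVD, the decarboxylase that makes isopentenyl diphosphate, had 12.3 and 12.9 FPKM against 38.7 and 38.7 (1.55 ± 0.05, limma adjusted p = 2.63e-09), a 3.07-fold difference of the means. FDPS, which makes farnesyl diphosphate, had 80.8 and 84.0 FPKM against 189.7 and 202.4 (1.24 ± 0.04). In all 3 genes both knockdown libraries were far above both vector libraries, a separation that the naming rule required of MVD. FDFT1, squalene synthase and the first step committed to sterols, had 36.2 and 36.4 FPKM against 106 and 103 (1.502 ± 0.039, limma adjusted p = 1.36e-09). MSMO1, a C4 demethylase of the sterol ring, had 22.3 and 24.5 FPKM against 66.0 and 66.1 (1.46 ± 0.05). Of the enzymes between lanosterol and cholesterol, CYP51A1 rose by 0.71 ± 0.06, SC5D by 0.61 ± 0.08 and DHCR7 by 1.09 ± 0.05. GGPS1, which turns the route to geranylgeranyl lipids for protein prenylation, was not called (0.07 ± 0.08, limma adjusted p = 0.459), and its groups overlapped.

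The regulators of the route had a median of 0.25, against 1.07 for its enzymes. INSIG1, a brake on SREBP that is itself an SREBP target, had 20.6 and 21.9 FPKM in vector and 43.7 and 47.2 in knockdown libraries (1.06 ± 0.05, limma adjusted p = 2.77e-08). SREBF2, the gene of SREBP2, was higher by 0.17 ± 0.06 (limma adjusted p = 0.0209). That call was lost under TPM scaling (0.005) and median-of-ratios scaling (0.14), without vector control replicate 2 (0.12) and without either knockdown replicate (0.17 each). SCAP, the sterol-sensing escort of SREBP, was not called (0.06 ± 0.06, limma adjusted p = 0.428). In all, 11 of 16 tested regulators and uptake genes rose and 4 fell, namely MBTPS2, MYLIP, NPC1 and LRP8, with 10 and 4 after the correction and 6 and 4 under TPM scaling. MYLIP, a ubiquitin ligase, was at -0.46 ± 0.13, and was not called without knockdown replicate 2 (-0.24) or vector control replicate 2 (-0.39), or with no filter on low values (limma adjusted p = 0.0599). NPC1, which moves cholesterol out of lysosomes, was not called without knockdown replicate 1 (-0.14). The sterol regulatory element TCACNCCAC was in 0 of the 17 cholesterol genes with a promoter window and in SREBF2 alone of 13 regulators, against 1.13% of tested genes, which says only that these letters were not in those windows.

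Fatty acid genes shared part of this pattern. Of 18 tested, 12 rose (66.7%, against 34.1% of all genes) and 3 fell (16.7%, against 28.8%), with a median of 0.23. Those that fell were GPAM, ACACA and ACSL3. After the length and GC correction 13 were higher and 0 lower, and under TPM scaling 7 were higher and 5 lower. ACSS2, which makes acetyl-CoA from acetate, had 6.003 and 7.152 FPKM in vector and 17.4 and 15.7 in knockdown libraries (1.21 ± 0.08, limma adjusted p = 1.82e-07). SCD, the stearoyl-CoA desaturase, had 267.5 and 258.7 FPKM against 447 and 472 (0.80 ± 0.04). Of 6 tested LXR and sterol efflux genes 3 rose (NR1H2, NR1H3 and SOAT1, named after their values were seen) and 1 fell, with 1 and 1 after the correction. The 1 that fell was ABCA1, which exports cholesterol, from 5.95 and 5.94 to 2.77 and 3.35 FPKM (-0.78 ± 0.08, corrected -0.44).

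For sterol enzymes the knockdown control libraries were on the same side of vector as knockdown: the list had a median of 0.96 for knockdown control minus vector control. MVD had 39.8 and 39.1 FPKM there, slightly above the knockdown libraries, and FDFT1 had 90.1 and 91.0. MSMO1, at 49.7 and 53.1 FPKM, lay between vector and knockdown.

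**Figure D4:**
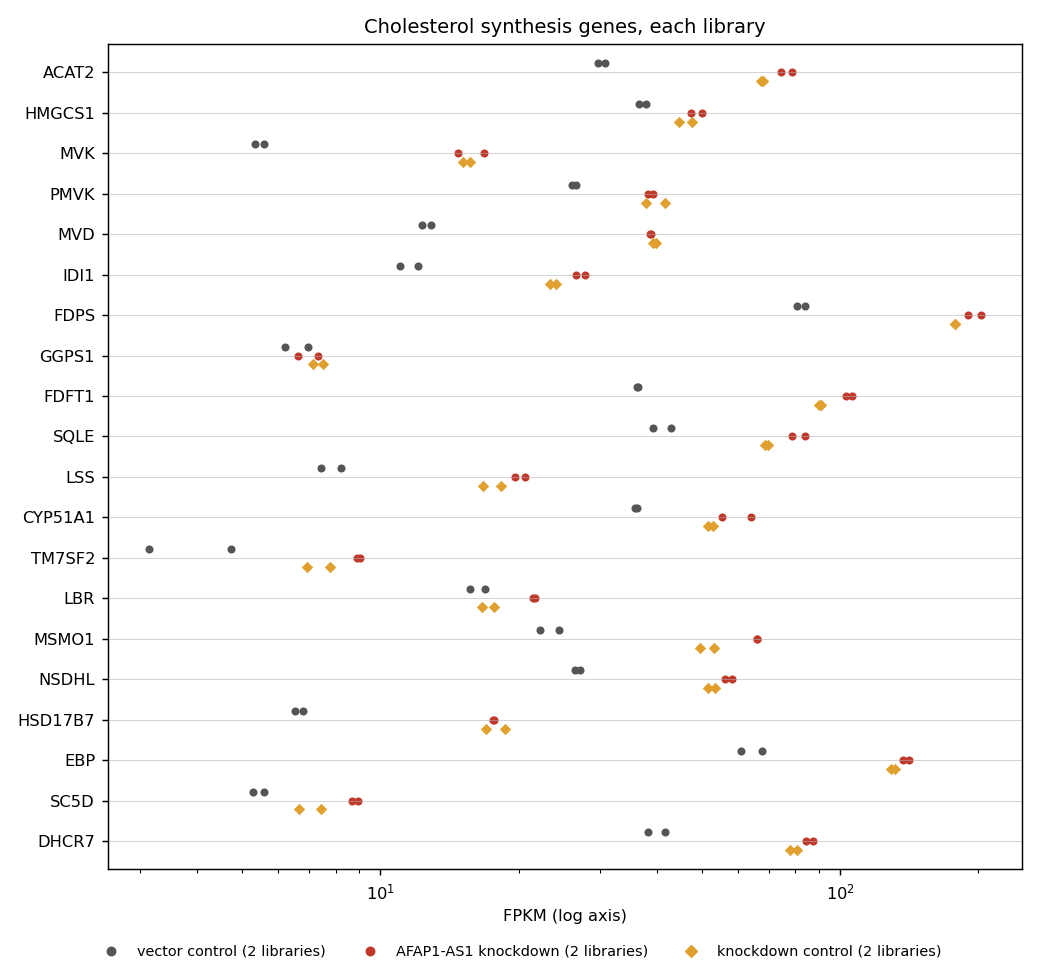
FPKM on a log axis of 20 of the 22 tested cholesterol synthesis genes in pathway order, in each vector control (grey), knockdown (red) and knockdown control (orange diamonds) library. The red points lie right of the grey ones for all genes plotted but GGPS1, whose groups overlap.

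Stress response genes rose in part. Of 28 tested genes of the ATF4 and CHOP response, 19 rose (67.9%, against 34.1% of all genes) and 5 fell, with a median of 0.49; after the correction 18 rose and 7 fell, with a median of 0.44. CHAC1, which breaks down glutathione, had 0.637 and 0.532 FPKM in vector (80 and 73 reads) and 3.49 and 2.78 in knockdown libraries (468 and 369 reads), a 5.36-fold difference of the means (1.38 ± 0.11, limma adjusted p = 7.88e-07). DDIT4, an mTORC1 inhibitor also induced by hypoxia, had 50.9 and 52.8 FPKM against 197 and 185.5 (1.86 ± 0.05). DDIT3, which encodes CHOP, had 41.7 and 43.1 FPKM against 90.3 and 88.9 (1.06 ± 0.05). The 5 that fell were the transcription factors ATF4, ATF3 and ATF5, the phosphatase subunit PPP1R15A and the kinase RIOK3. ATF4 itself, the factor of the response, had 59.1 and 61.1 FPKM against 50.9 and 49.7 (-0.25 ± 0.04, limma adjusted p = 0.000206). PPP1R15A, whose product restores translation, had 157.6 and 156.8 FPKM against 114.8 and 113.5 (-0.46 ± 0.03). ATF4 protein is mainly set by translation, which RNA levels do not show.

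A CARE-type element that ATF4 can bind, TGATGNAA on both strands, was found in the same promoter windows of 5 of 23 genes of this list, or 21.7%, against 2.21% of tested genes: ATF3, CHAC1, ASNS, CEBPG and JDP2. ATF3 fell while the other four were higher in knockdown cells by 0.26 to 1.38. The windows of 2 that rose are shown with the match in capitals.
CHAC1 (chr15:40953236-40953295, plus strand): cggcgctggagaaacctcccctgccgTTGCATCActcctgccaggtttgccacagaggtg
ASNS (chr7:97872443-97872502, minus strand): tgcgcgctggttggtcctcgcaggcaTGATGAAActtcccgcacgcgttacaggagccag
ASNS, asparagine synthetase, had 23.0 and 24.1 FPKM in vector and 35.6 and 36.1 in knockdown libraries (0.59 ± 0.05, limma adjusted p = 7.18e-07). Serine and proline synthesis genes rose with it, among them PSPH (0.83 ± 0.06), PYCR1 (0.82 ± 0.06) and SHMT2 (0.70 ± 0.05), within a list where 11 of 19 rose and 3 fell (12 and 1 after the correction). Amino acid transporters did not follow as a group. In that list 4 of 17 rose (23.5%, against 34.1% of all genes) and 8 fell (47.1%, against 28.8%), with 5 and 6 after the correction. SLC7A11, the cystine carrier, had 44.0 and 43.9 FPKM against 23.7 and 25.3 (-0.82 ± 0.05). The knockdown control libraries stood higher than knockdown for DDIT3, at 156 and 157 FPKM, for ASNS, at 54.8 and 53.9, and for ATF3, at 87.4 and 85.5.

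The largest increase of any gene was in EGR1, an immediate early transcription factor. It had 5.29 and 3.98 FPKM in vector and 28.97 and 26.57 in knockdown libraries (2.36 ± 0.10, limma adjusted p = 1.46e-08), a 5.99-fold difference of the means. JUNB, an AP-1 subunit, had 15.9 and 12.9 FPKM against 46.5 and 48.4 (1.66 ± 0.08). Of the immediate early list, 12 of 29 were higher (41.4%, against 34.1% of all genes) and 10 lower (34.5%, against 28.8%). These shares are not far from the background. After the correction 10 were higher and 6 lower. The list median of 0.11 turned to -0.03 under TPM scaling. FOS, the partner of JUN proteins, was low, at 0.916 and 1.30 FPKM against 2.33 and 2.52 (0.71 ± 0.10). In the knockdown control EGR1 had 56.6 and 59.3 FPKM and FOS 16.22 and 16.02, above both other groups.

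Of the remaining genes described among the 12 largest increases, only SESN2 is on a list used here. TNFAIP6, a secreted hyaluronan-binding protein, had 1.65 and 1.91 FPKM in vector and 8.45 and 6.70 in knockdown libraries (1.62 ± 0.10). ARL14, a small GTPase, had 1.10 and 1.47 FPKM against 6.74 and 5.71 (1.66 ± 0.10). SESN2, a leucine sensor and stress gene on both the ATF4 and the p53 lists, had 5.65 and 4.79 FPKM against 14.9 and 16.03 (1.41 ± 0.08). The last, the histone H4 gene H4-16, rested on 13 and 0 reads in vector and 41 and 53 in knockdown libraries. Among the 12 largest decreases, DDX60L, a helicase-like gene, had 13.2 and 12.7 FPKM against 3.46 and 3.31 (-1.67 ± 0.07). ARL14 stood at 15.8 and 15.6 FPKM in the knockdown control, above both other groups.

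Inflammatory genes split. Of 25 tested NF-kB and inflammatory genes 12 rose (48.0%, against 34.1% of all genes) and 10 fell (40.0%, against 28.8%). After the correction 5 were higher and 9 lower. CXCL8, the neutrophil chemokine, had 12.5 and 12.8 FPKM in vector and 31.4 and 31.9 in knockdown libraries (1.26 ± 0.06). PTGS2, which encodes the prostaglandin enzyme COX-2, moved the other way, with 26.1 and 26.9 FPKM against 7.99 and 8.20 (-1.60 ± 0.05, limma adjusted p = 2.67e-09). NFKBIA, the inhibitor that NF-kB induces, had 54.7 and 53.1 FPKM against 91.6 and 93.4 (0.77 ± 0.04).

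Hypoxia and glycolysis genes were mostly higher. Of 20 genes of the hypoxia-induced list 12 rose, a larger share than the 34.1% of all genes. The 4 that fell (ADM, KDM3A, HIF1A and EPAS1) were a smaller share than the 28.8% of all genes. Beside induced genes, the list counts genes of the hypoxia factors, HIF1A and EPAS1 among them. The list median was 0.54, and 15 were higher and 4 lower after the correction. HIF1A, the oxygen-regulated subunit of the hypoxia factor, had 105.5 and 107.7 FPKM in vector and 52.7 and 51.4 in knockdown libraries (-1.02 ± 0.04, limma adjusted p = 7.58e-09). ANGPTL4, a secreted lipase inhibitor, had 5.69 and 5.64 FPKM against 18.7 and 16.5 (1.48 ± 0.09). So the RNA of the factor was lower and that of many of its known targets higher in the same libraries. Among 20 glycolysis genes 13 rose (65.0%, against 34.1% of all genes) and 1, PFKP, fell, with 11 and 3 after the correction. SLC2A3, the glucose transporter GLUT3, had 10.27 and 11.03 FPKM against 27.1 and 26.6 (1.26 ± 0.06), with 15.6 and 16.4 in the knockdown control. LDHA, lactate dehydrogenase, was among the most abundant, at 1002 and 1038 FPKM against 1524 and 1568 (0.60 ± 0.03). List medians for knockdown control minus vector control were 0.35 for hypoxia and 0.44 for glycolysis, against 0.54 and 0.36 for knockdown. ANGPTL4 had 26.56 and 26.52 FPKM in the knockdown control, above both other groups, and HIF1A 45.75 and 45.16, below both. LDHA, at 1354 and 1349 FPKM there, lay between vector and knockdown, as did SLC2A3.

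Groups of long transcripts were mostly lower. Of 24 cohesin, condensin and SMC genes, which hold and fold chromosomes, 17 fell and 1 rose (CDCA5, named after its values were seen, at 0.28 ± 0.05), with a median of -0.57 that became -0.29 after the length and GC correction, where 17 were called lower. The median length in this list was 5362 bases and its GC content 39.8%. SMC3, a ring subunit of cohesin, had 33.1 and 33.9 FPKM in vector and 13.81 and 12.98 in knockdown libraries (-1.26 ± 0.05). Of 58 chromatin enzymes and remodelers, with a median length of 7479 bases, 43 fell and 1 rose, and 30 fell and 3 rose after the correction. The 1 that rose was KDM6B, an H3K27 demethylase named after its values were seen (0.67 ± 0.07). ATRX, a remodeler of heterochromatin, had 11.3 and 11.6 FPKM against 3.48 and 3.28 (-1.51 ± 0.07, corrected -1.04). DNA damage and repair genes had 24 of 47 lower (51.1%, against 28.8% of all genes) and 3 higher (6.38%, against 34.1%). After the correction 16 were lower and 5 higher. The repair list median of -0.19 became -0.05, near the corrected 0.03 of all genes, so little of this decrease remained. RAD50, of the complex that senses double-strand breaks, had 27.7 and 27.6 FPKM against 12.5 and 11.6 (-1.14 ± 0.06, corrected -0.79). The knockdown control was on the same side of vector as knockdown in these lists. Its medians were -0.81 for cohesin, -0.38 for chromatin and -0.31 for repair genes, against -0.57, -0.36 and -0.19 for knockdown.

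Mitosis genes were mixed. Of 41 tested 20 fell (48.8%, against 28.8% of all genes) and 14 rose (34.1%, the share over all genes). The median was -0.03, and -0.20 after the correction. For knockdown control minus vector control the list median was -0.4. CENPF, a kinetochore protein with a long transcript, had 37.6 and 38.1 FPKM in vector and 12.6 and 11.8 in knockdown libraries (-1.56 ± 0.05, limma adjusted p = 2.67e-09). In the knockdown control it had 7.26 and 7.03 FPKM, below both other groups. CKS2, a small cofactor of cyclin-dependent kinases, had 282 and 281 FPKM against 434.9 and 427.5 (0.61 ± 0.03). MKI67, the proliferation antigen, had 67.1 and 63.1 FPKM against 35.9 and 37.0 (-0.82 ± 0.05, corrected -0.50). Of 44 S phase genes 16 were higher (36.4%, near the 34.1% of all genes) and 8 lower (18.2%, against 28.8%). After the correction 14 were higher and 13 lower. Their median of 0.04 was -0.12 under TPM scaling. PCNA, the replication clamp, was higher (0.33 ± 0.04) and MCM2, of the replicative helicase, lower (-0.52 ± 0.04).

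Abundant short transcripts were mostly higher. Of 76 cytosolic ribosomal protein genes 70 rose and 0 fell, with a median of 0.32 and a median length of 1176 bases. After the length and GC correction 36 rose and 17 fell, with a median of 0.05, and under quantile normalization 42 rose. RPSA, a small subunit protein, had 1164 and 1207 FPKM in vector and 1674 and 1605 in knockdown libraries (0.47 ± 0.03, corrected 0.21). RPS27 differed by 0.54 ± 0.04 and by 0.02 after the correction, where it was not called. Ribosomal protein genes have many processed pseudogenes, so their values depend on how reads were assigned. Nuclear-encoded respiratory chain genes had 35 of 39 higher and 0 lower, with a median of 0.44, and 28 higher and 3 lower after the correction, with a median of 0.23. NDUFB9, of complex I, had 173 and 170.2 FPKM against 271 and 261 (0.63 ± 0.04, corrected 0.51). Medians for knockdown control minus vector control were 0.48 for ribosomal protein genes and 0.53 for respiratory chain genes, on the same side as knockdown. Proteasome subunits went from 21 of 31 higher and 4 lower to 11 and 5. The plot of list medians before and after correction sets these shifts side by side.

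**Figure D5:**
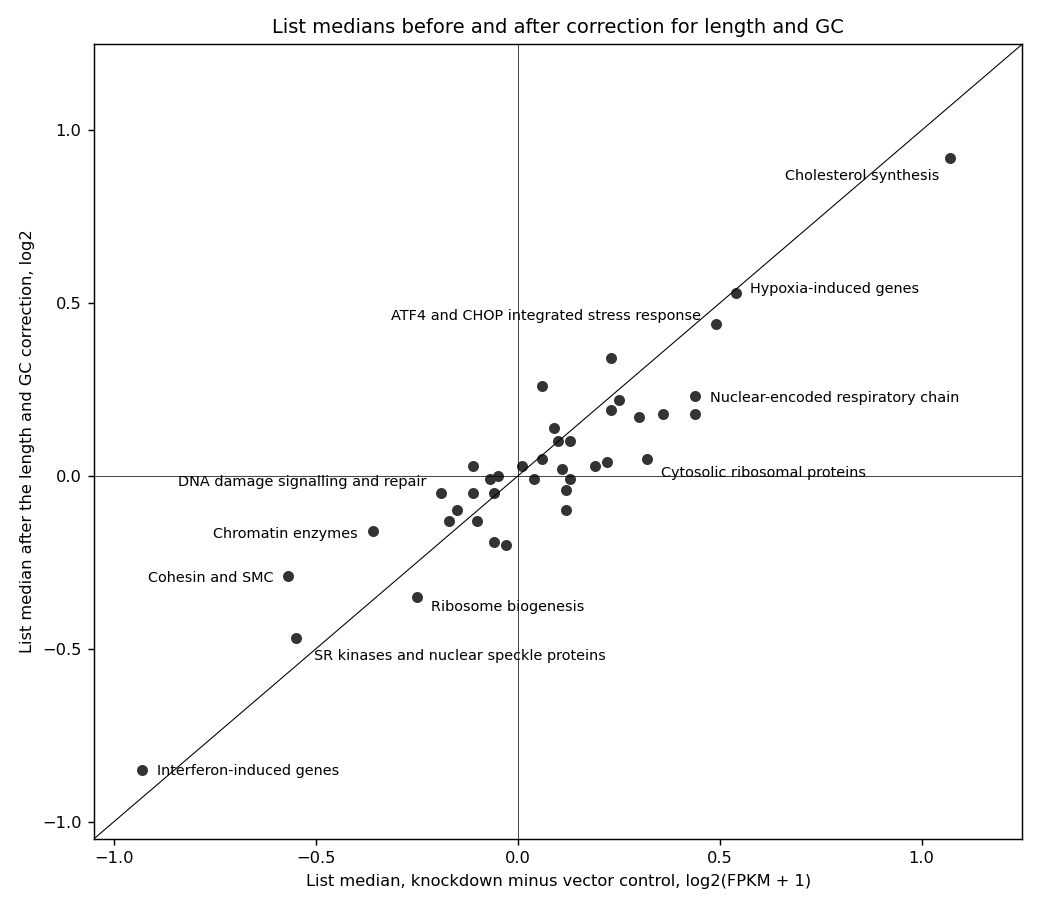
Median log2 fold change of each gene list, knockdown minus vector control, before (horizontal) and after (vertical) the correction for transcript length and GC content; the diagonal marks no shift. Cytosolic ribosomal proteins move from 0.32 to 0.05 and cohesin genes from -0.57 to -0.29, while cholesterol synthesis is at 0.92 and interferon-induced genes at -0.85 after it.

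Factors that build ribosomes were mostly lower. Of 32 ribosome biogenesis genes 24 fell and 3 rose (FBL, NOP16 and NHP2), with a median of -0.25, and after the correction 27 fell and 2 rose, with a median of -0.35. NCL, the abundant nucleolar protein nucleolin, had 526.7 and 549.5 FPKM in vector and 337 and 334 in knockdown libraries (-0.68 ± 0.04). WDR43, of the small subunit processome, had 94.8 and 95.7 FPKM against 45.5 and 43.5 (-1.08 ± 0.05, corrected -0.94). The list median for knockdown control minus vector control was -0.37, on the same side as knockdown.

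Splicing genes are named in the title of the series. The 13 SR splicing factors, which bind exons and help choose splice sites, changed little: 7 fell, 3 rose and 3 were not called, with a median of -0.11 that became 0.03 after the correction, where 5 were lower and 3 higher. SRSF11 had the largest difference, with 20.3 and 20.3 FPKM in vector and 12.7 and 12.6 in knockdown libraries (-0.64 ± 0.05, limma adjusted p = 1.19e-06). SRSF3, SRSF7 and SRSF9 rose, by 0.31 ± 0.04, 0.36 ± 0.04 and 0.39 ± 0.04. SRSF1 and SRSF6 were called lower at -0.11 each, and SRSF1 was not called after the correction (-0.01), where SRSF6 changed sign (0.09). SRSF1 was also not called without vector control replicate 1 (-0.10) or knockdown replicate 1 (-0.08), and SRSF6 without any 1 of the 4 libraries (-0.13 to -0.10). SR kinases and nuclear speckle proteins moved further, with 20 of 22 lower and 0 higher, and 20 lower and 1 higher after the correction. Their median was -0.55, and -0.47 after the correction. For knockdown control minus vector control it was -0.64, on the same side. PNN, pinin, a speckle and junction protein, had 67.0 and 63.9 FPKM against 25.2 and 21.4 (-1.46 ± 0.08), and SRRM2, the scaffold of speckles, had 81.0 and 69.8 against 36.6 and 39.1 (-0.97 ± 0.06). U2AF1, which reads the 3' splice site, was called lower (-1.56 ± 0.41, limma adjusted p = 0.00559), but its knockdown libraries stood at 5.51 and 0.833 FPKM, and the change was -2.475 without knockdown replicate 1 and -0.65 without knockdown replicate 2. It had 9.46 and 8.93 FPKM in vector libraries, 1.14 and 0.977 in the knockdown control and 0.821 and 1.82 in the overexpression group. The low values are therefore not particular to knockdown cells. With no filter on low values the limma adjusted p of U2AF1 was 0.0787. A near-identical copy on chromosome 21, U2AF1L5, makes the value uncertain.

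AXIN2, a Wnt target whose protein scaffolds the complex that destroys beta-catenin, had 2.98 and 3.03 FPKM in vector and 2.22 and 2.63 in knockdown libraries. Both knockdown libraries were lower, but the difference did not pass (-0.23 ± 0.11, limma adjusted p = 0.0772). It passed under TPM scaling (-0.36, limma adjusted p = 0.00973) and with voom on recovered reads (-0.32, limma adjusted p = 0.0379). The knockdown control had less AXIN2 than either group, at 1.71 and 1.21 FPKM. Of 22 genes of the destruction complex and Wnt targets 5 rose (22.7%, against 34.1% of all genes), 7 fell (31.8%, against 28.8%) and 10 were not called, with 5 higher and 6 lower after the correction. APC, another scaffold of the complex, had 5.39 and 5.41 FPKM against 2.40 and 2.50 (-0.89 ± 0.09, corrected -0.46). RNF43, a Wnt target that removes Wnt receptors, was lower (-0.44 ± 0.10), while CTNNB1, beta-catenin itself, MYC and CCND1 were not called, at -0.05, -0.08 and -0.05. CTNNB1 was called higher after the correction (0.14, limma adjusted p = 0.0172) and lower under TPM scaling (-0.23, limma adjusted p = 0.00101). MYC was called lower after the correction (-0.23, limma adjusted p = 0.00067) and under TPM (-0.25), quantile (-0.16) and median-of-ratios (-0.11) scaling. Quantile scaling also called CTNNB1 (-0.15) and CCND1 (-0.20) lower, as TPM scaling did CCND1 (-0.23).

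AFAP1, which lies on chromosome 4 from 7758713 to 7939861 (GRCh38.p14, RefSeq) and encodes an actin filament-associated protein, had 9.82 and 9.10 FPKM in vector and 8.88 and 10.3 in knockdown libraries. Its groups overlapped (0.01 ± 0.07, limma adjusted p = 0.885). The RNA that the knockdown targets, AFAP1-AS1, is not analysed here, so the labels were not checked by its level. The sources used here do not give strand use in counting, so where AFAP1 and AFAP1-AS1 overlap their reads cannot be told apart. Of 9 genes of AFAP1 and its 4p16 neighbours 8 were not called, and GRPEL1, named after its values were seen, was higher by 0.16 ± 0.05.

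Genes of drug handling and the antioxidant response were called lower more often than the 28.8% of all genes. Of 16 ABC drug transporters 8 fell and 2 rose (12.5%, against 34.1% of all genes). The 2 were ABCB10 and ABCA3, both named after their values were seen. After the correction 8 fell and 4 rose. ABCC2, an efflux pump for conjugated drugs, had 106 and 103 FPKM in vector and 59.1 and 58.2 in knockdown libraries (-0.82 ± 0.05, corrected -0.62). ABCC3, of the same family, had 84.8 and 78.2 FPKM against 48.8 and 47.3 (-0.75 ± 0.05, corrected -0.70). ABCG2, the breast cancer resistance protein, was lower by a smaller margin, at 14.5 and 14.6 FPKM against 10.3 and 10.3 (-0.46 ± 0.06). Of 30 genes of the NRF2 list, 13 fell (43.3%, against 28.8% of all genes) and 9 rose, a share not far from the 34.1% of all genes. Beside targets, the list holds NFE2L2, the gene of NRF2, and its inhibitor KEAP1, both named after their values were seen. Both count among the genes that fell, at -0.41 and -0.20. After the correction 17 fell and 8 rose. TPM scaling called 4569 of all 10648 genes lower and 2136 higher. Under it 10 ABC transporters were lower and 1 higher, and 21 genes of the NRF2 list were lower and 6 higher. A549 cells are known for constant NRF2 activity through a KEAP1 mutation. TXNRD1, thioredoxin reductase, had 528.5 and 535 FPKM against 369 and 377 (-0.51 ± 0.03), whereas PRDX1, a peroxiredoxin with a short transcript, was higher (0.57 ± 0.04, corrected 0.29). The knockdown control libraries had 51.4 and 47.1 FPKM of ABCC2 and 340 and 341 of TXNRD1, below both other groups.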

How the data were processed

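The authors deposited FPKM values of 17056 genes in 8 library columns, per the file header. HISAT2, HTSeq, featureCounts and R 3.2.0 are listed in the submitters' processing notes with the build GRCh38 and no roles. The annotation, the filters and strand use were not given in the sources used here. Low FPKM values were whole multiples of the worth of 1 read, so reads were recovered for 17055 genes (tolerance 0.02 reads). Those totals depend on the recovered scale of each gene, since a gene whose counts share a divisor is counted low.

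Genes that averaged 1 FPKM or more over 8 libraries were tested with limma 3.58.1 in R 4.3.3 (trend, two-sided) on log2(FPKM + 1), which understates changes of low genes. All 4 groups entered 1 fit with 4 residual degrees of freedom, so the libraries not compared enter the filter and the spread. With 2 libraries a group, no exact permutation test can pass 0.05. Whether replicates are separate cultures is not labelled, so the p-values cover the spread between libraries, possibly a technical one. Replicate reads varied beyond sampling noise, with a chi-square of 5.11 to 5.85 per degree of freedom. The length and GC correction fitted splines of 4 degrees of freedom within each library, using the longest GENCODE 29 transcript of a gene (99.8% matched). Promoter windows are RefSeq's.

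Members and lists were chosen with earlier results of these data known. Named genes were AFAP1, AXIN2, the 12 largest changes each way among called genes whose libraries did not overlap, the up to 6 smallest p-values of each list, and any member of the sterol, fatty acid, stress response, SR factor and Wnt lists; others are marked in the text. Some list members are counted but not reported here by name. The scripts were tested on simulated data. Alternatives were pseudocounts of 0.1 and 0.5, other filters, scalings and fits, voom on recovered reads, and leaving out each library.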

Additional observations from a re-analysis of the deposited data

How the results depend on the processing

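The count of 6700 called genes ranged from 5748 to 5965 when any of the 4 libraries was left out, and from 5142 (mean of at least 5 FPKM) to 6872 (voom on recovered reads) over the other settings that keep the 0.05 threshold alone. Same-numbered libraries did not deviate together across genes (correlation -0.049 between the groups compared). With 2 libraries a group, this cannot show whether same-numbered libraries were prepared together. The replicate block gave 6707 calls. Requiring a log2 fold change of at least 1 left 172 genes, 67 higher and 105 lower, with 13 cholesterol synthesis, 5 stress response, 2 glycolysis, 0 respiratory chain and 0 ribosomal protein genes higher, and 16 interferon, 4 speckle, 3 chromatin, 3 cohesin, 2 DNA repair and 1 ribosome biogenesis genes lower. TPM scaling gave 2136 genes higher, 40 of them by at least 1, and 216 lower by at least 1. Those last counts were 163 and 216 with a pseudocount of 0.1, 190 and 243 with voom, and 35 and 45 after the length and GC correction. Ribosomal protein genes called higher numbered 42 under quantile normalization and 36 after the correction; the cause was not tested. Signs changed for SREBF1 (-0.001) and TRA2A (-0.139) under TPM scaling, for SRSF6 (0.093), CTNNB1 (0.137) and KRT7 (-0.050) after the correction, and for KRT7 (-0.030) and KRT8 (-0.145) under quantile normalization. AFAP1 was called after the correction (0.17, limma adjusted p = 0.0413). Of 218 named genes, 207 kept their direction and call under TPM scaling, and 203 of the 216 with a corrected value did so after the correction. With 2 libraries in a group, the fits that left out a library assume that the lone library varied like the other groups.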

Other observations

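Metallothionein genes, whose small proteins bind zinc and other metals, were among the larger increases. MT2A had 209 and 218 FPKM in vector and 496 and 468 in knockdown libraries (1.17 ± 0.06, corrected 0.68), and MT1X 21.1 and 19.2 against 54.0 and 51.6 (1.35 ± 0.08, corrected 0.85). Their list with zinc transporters had 5 of 12 higher (41.7%, against 34.1% of all genes) and 4 lower (33.3%, against 28.8%). After the correction 6 were higher and 1 lower. In the knockdown control MT2A stood at 670 and 764 FPKM. Of 15 tested BCL2 family genes 11 rose (73.3%, against 34.1% of all genes) and 0 fell. After the length and GC correction 8 rose and 1 fell. MCL1, which blocks apoptosis, had 55.1 and 54.5 FPKM against 78.9 and 80.1 (0.53 ± 0.04), and BNIP3, a mitophagy receptor also induced by hypoxia, had 31.2 and 34.2 against 55.7 and 54.6 (0.74 ± 0.05). BAX, which promotes apoptosis, was higher as well (0.47 ± 0.04, corrected 0.14).

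Extracellular matrix and integrin genes were lower in 16 of 31 cases (51.6%, against 28.8% of all genes). They were higher in 9, a share not far from the 34.1% of all genes. After the correction 17 were lower and 6 higher. FN1, fibronectin, had 129 and 120.0 FPKM in vector and 65.0 and 65.3 in knockdown libraries (-0.92 ± 0.04, corrected -0.71). Among 16 circadian clock genes 4 rose (25%, against 34.1% of all genes) and 6 fell (37.5%, against 28.8%), with 4 and 6 after the correction, shares not far from the background. NR1D2, a clock repressor, had 17.0 and 14.7 FPKM against 6.20 and 5.44 (-1.30 ± 0.08), and PER1, another repressor, had 4.04 and 3.86 against 7.08 and 6.40 (0.64 ± 0.08). PER1 stood at 19.9 and 19.6 FPKM in the knockdown control. Of 24 heat shock genes 13 rose (54.2%) and 3 fell, and 14 and 3 after the correction, with HSPE1, the mitochondrial partner of HSP60, at 31.5 and 31.1 FPKM against 56.8 and 64.7 (0.93 ± 0.06, corrected 0.61). That list's median of 0.13 was -0.04 under TPM scaling. Of 23 chaperones and unfolded protein response genes of the endoplasmic reticulum 10 rose (43.5%) and 6 fell (26.1%), with 11 and 2 after the correction and 6 and 8 under TPM scaling.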
